A study of Mus musculus with 19 samples.

Results

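The 5 mature miRNAs miR-187, miR-551b, miR-31, miR-873 and miR-139-5p were taken by name from a table of 528 miRNA names measured in 19 mouse brain libraries. They had been proposed as miRNAs high in somatostatin (SST) interneurons, and that choice was made from values in this same table. All 5 were higher in both SST libraries than in both libraries of parvalbumin (PV) interneurons. Only miR-187 and miR-139-5p were above every library of every other group, and miR-31 and miR-873 were highest in excitatory Camk2a neurons. As a name for all 5, "SST-enriched" thus held against PV and Cerebellum libraries but not against Camk2a or Neocortex libraries, and the 5 are called by their own names here.

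miRNAs are short RNAs cut from a hairpin precursor and loaded into an Argonaute protein, where bases 2 to 8 (the seed) pair with target mRNAs. One arm of the hairpin is usually kept and the other, written with a star or as the other of -5p and -3p, is mostly degraded. SST and PV neurons are the major non-overlapping classes of neocortical GABAergic interneurons: SST cells mostly contact dendrites and PV cells mostly contact cell bodies and axon initial segments. Gad2, the gene of a GABA-synthesizing enzyme, marks GABAergic neurons broadly, Camk2a marks excitatory neurons, and Purkinje cells are the GABAergic output neurons of the cerebellar cortex.

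The mature sequences of 4 of the 5 matched RefSeq entries by name (build GRCm38.p6) and are shown because their seeds set which targets each can pair with. Capitals mark the seed.
miR-551b: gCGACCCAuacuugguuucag
miR-31: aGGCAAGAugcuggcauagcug
miR-873: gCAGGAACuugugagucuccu
miR-139-5p: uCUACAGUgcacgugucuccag

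The 4 seeds were all different, so these miRNAs do not belong to one seed family, and no other name matched in the deposited table carried any of them. Their genes were also scattered. miR-551b came from chr3:29416879-29416899 on the plus strand, inside an intron of Egfem1. miR-31 came from chr4:88910614-88910635 on the minus strand, within an exon of a long non-coding RNA gene. miR-873 lay at chr4:36668556-36668576 on the minus strand in an intron of Lingo2, with the Mir873b hairpin annotated on the opposite strand at the same place. miR-139-5p lay at chr7:101475382-101475403 on the plus strand in an intron of Pde2a, which encodes a cyclic nucleotide phosphodiesterase. The Mir187 hairpin overlapped no annotated gene. These hosts all differ, so no pair of these 5 miRNAs shared a transcript in the annotation.

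The libraries were small RNAs of 19 to 24 nt bound to Argonaute 2 (Ago2) and recovered by immunoprecipitation from tissue at postnatal day 56. Anti-Ago2 recovered Ago2 of all cells from whole neocortex (Neocortex, 3 libraries, C57BL/6 & BALB/c) and whole cerebellum (Cerebellum, 3 libraries, C57BL/6 & black swiss), each from 1 tissue. Anti-myc was used for 5 neuron classes, as in miRNA tagging, where a Myc-tagged Ago2 is expressed in the named class alone. Camk2a had 3 libraries (neocortex, C57BL/6 & BALB/c, 1 tissue each) and Purkinje had 3 (cerebellum, C57BL/6 & black swiss, 3 tissues pooled). Gad2 had 3 libraries, PV had 2 and SST had 2, all from neocortex of C57BL/6 & 129 with 4 tissues pooled. The Cre drivers and tag alleles are named in the labels only through the group names. Gad2, PV and SST thus shared strain, antibody and pooling, while a neuron class and its whole tissue differed in antibody, and Gad2 also differed from Neocortex and Camk2a in strain and pooling. Cerebellum and Purkinje differed in strain from all neocortical groups, and Purkinje differed in pooling from both Cerebellum and Gad2. Those differences cannot be told apart from the cell class or the region.

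Libraries held 1229834 to 14249087 miRNA reads. The SST libraries were among the shallow ones, at 1278770 and 2457681 reads, and the PV libraries held 10739153 and 11438142. Levels are in reads per 1000000 miRNA reads (RPM), and 3 reads, the limit that a count of 0 allows, corresponded to 0.211 to 2.44 RPM. Such limits cover counting error only. Somatostatin and parvalbumin mRNAs are not in these data, so the class labels could not be checked against them. Blood and microglial miRNAs (6 of 6 listed, among them miR-451 and miR-142-3p) summed to 1786 to 4035 RPM in Neocortex and 2474 to 2964 RPM in Cerebellum. In the 5 neuron classes they summed to 11.4 to 66.1 RPM. miR-142-3p had no reads in SST, but the limits there were 1.22 and 2.35 RPM by library. Its means of 0.219 to 0.670 RPM in the other neuron classes lay below those limits. From the same hairpin, miR-142-5p averaged 1.80 RPM in SST. Vascular miRNAs (3 of 4 matched) summed to 295 to 354 RPM in Gad2, 295 to 330 RPM in PV and 734 to 766 RPM in SST. They were higher in Camk2a, at 934 to 993 RPM, and in Neocortex, at 7841 to 8178 RPM. The listed ependymal and choroid miRNAs (3 of 4 matched) summed to 414 to 419 RPM in SST. They summed to 65.6 to 132 RPM in the other neocortical groups and 1338 to 1827 RPM in Cerebellum. Most of the SST sum was miR-34c, which averaged 238 RPM in SST, 85.5 RPM in PV and 13.8 RPM in Neocortex. For miR-34b-5p these means were 51.4, 30.3 and 6.58 RPM. miR-204 averaged 128 RPM in SST, 7.55 RPM in PV, 20.0 RPM in Gad2 and 67.3 RPM in Camk2a. It averaged 58.4 RPM in Neocortex and 1472 RPM in Cerebellum. Of the neocortical groups, SST thus had the highest mean for each of these 3 miRNAs. The part of the signals on these lists in the results below was not tested. In such bulk samples, fewer cells of a type and less RNA per cell cannot be told apart.

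miR-187 had the widest range of the 5. Its level in the 2 SST libraries was 551 and 855 RPM. In the 3 Gad2 libraries it was 205, 171 and 140 RPM. In the 2 PV libraries it was 7.73 and 8.22 RPM. SST was above all other libraries, Gad2 above all but SST, and PV far below both. Neocortex libraries had 9.77, 7.56 and 18.9 RPM of miR-187, and Camk2a libraries had 4.17, 5.22 and 5.11 RPM. Cerebellum libraries had 34.2, 32.8 and 36.1 RPM, and Purkinje libraries had 0.485, 3.20 and 2.07 RPM, which rested on 16 reads in all. Ordered by group mean, miR-187 ran from SST through Gad2, Cerebellum, Neocortex, PV and Camk2a to Purkinje. Among neighbours in that order, only Neocortex and PV overlapped in their libraries.

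miR-139-5p was the most abundant of the 5 and the other one that was highest in SST. The SST libraries had 16853 and 14516 RPM. The Gad2 libraries had 5588, 5449 and 7347 RPM, and the Camk2a libraries 5641, 5096 and 7327 RPM. Both SST libraries were above all others, whereas Gad2 and Camk2a overlapped. The Neocortex libraries had 2401, 2406 and 4853 RPM of miR-139-5p and the PV libraries 2286 and 2878 RPM. The Purkinje libraries had 3556, 3582 and 1892 RPM and the Cerebellum libraries 375, 359 and 323 RPM. Neocortex, Purkinje and PV overlapped one another, and Cerebellum was below every other library.

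miR-551b was set apart by its low level in PV and not by a high one in SST. The PV libraries had 15.3 and 15.7 RPM. The SST libraries had 705 and 679 RPM, and the Gad2 libraries had 585, 461 and 652 RPM. The Camk2a libraries had 629.5, 587 and 548 RPM and the Neocortex libraries 281, 579 and 770 RPM. SST, Camk2a, Gad2 and Neocortex formed a plateau: SST lay above every Camk2a and Gad2 library on this scale but within the Neocortex range. The Purkinje libraries had 205, 186 and 110 RPM of miR-551b and the Cerebellum libraries 23.6, 20.0 and 21.1 RPM. PV was thus below all other libraries, with Cerebellum next.

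miR-31 had its highest level in excitatory neurons. The Camk2a libraries had 344, 363 and 439 RPM and the Neocortex libraries 287, 266 and 393 RPM. The SST libraries had 183 and 199 RPM, and the Purkinje libraries 151, 153 and 210 RPM. The Gad2 libraries had 76.3, 57.6 and 110 RPM. SST overlapped Purkinje and was above Gad2, while Camk2a overlapped Neocortex. The Cerebellum libraries had 30.9, 31.6 and 20.6 RPM of miR-31 and the PV libraries 11.6 and 13.0 RPM, so PV was again below all others.

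miR-873 had a similar order. The Camk2a libraries had 660, 755 and 622 RPM, and the Neocortex libraries had 563, 552 and 513 RPM. The SST libraries had 348 and 306 RPM and the Gad2 libraries 339, 267 and 258 RPM. Camk2a was above all other libraries, and SST and Gad2 overlapped. The Purkinje libraries had 80.9, 109 and 124 RPM of miR-873, the PV libraries 53.3 and 40.4 RPM, and the Cerebellum libraries 18.7, 23.4 and 19.5 RPM. Here Cerebellum, not PV, was lowest, and these groups did not overlap.

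**Figure D1:**
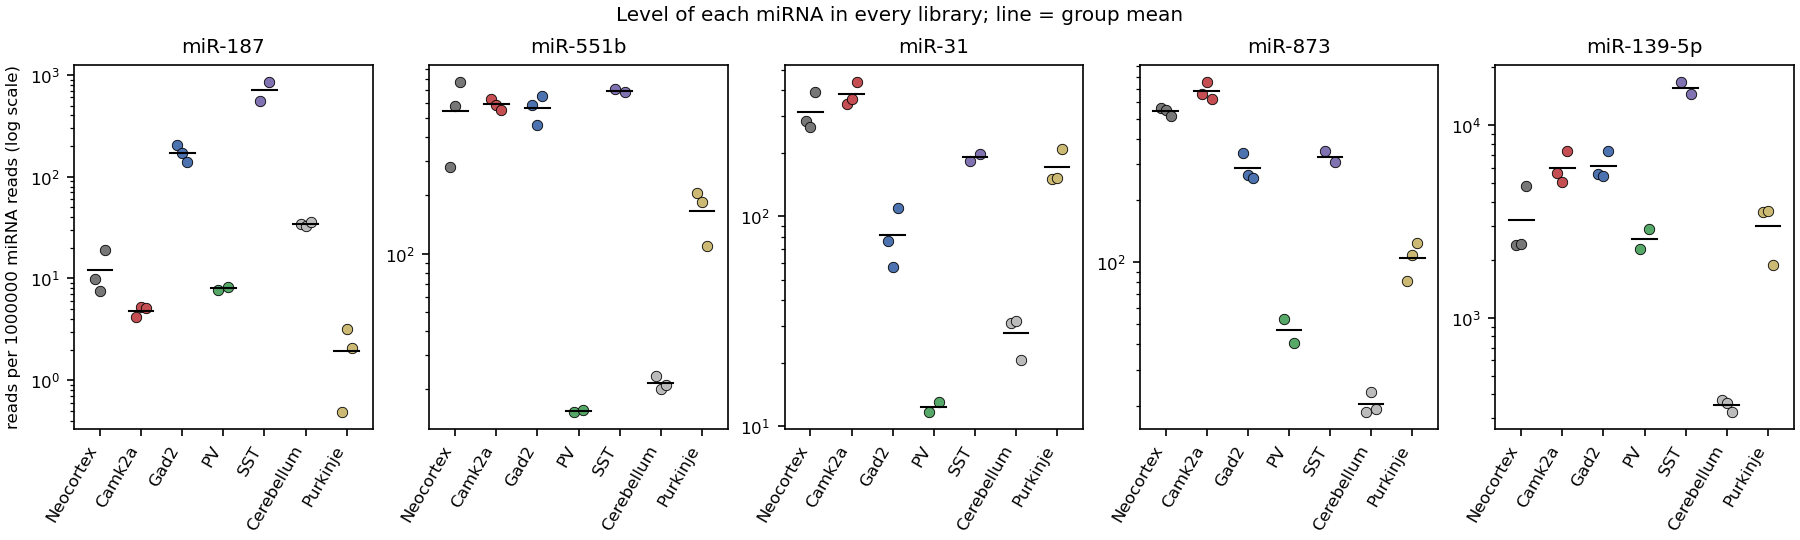
Level of miR-187, miR-551b, miR-31, miR-873 and miR-139-5p in each of 19 libraries, in RPM on a log axis whose range differs between panels. Each point is 1 library and each line a group mean. SST is above every other group for miR-187 and miR-139-5p, and PV is below every other group for miR-551b and miR-31.

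The SST and PV levels are a description without a test, because the members were chosen on them. By ratio of group means, SST exceeded PV 88.2-fold for miR-187, 44.6-fold for miR-551b, 15.5-fold for miR-31, 6.99-fold for miR-873 and 6.07-fold for miR-139-5p. Both SST libraries were above both PV libraries for 5 of 5 members, as they were for 50.2% of the 522 miRNAs tested. Both SST libraries were above all 17 others for 2 of 5, against 12.8% of all miRNAs. Both PV libraries were below all others for 2 of 5, against 5.36%. These shares describe how the members were picked and carry no further reading.

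Among the 176 miRNAs whose PV and SST mean reached 100 RPM, the 5 ranked 1 (miR-187), 2 (miR-551b), 4 (miR-31), 7 (miR-873) and 10 (miR-139-5p) by the difference of SST and PV on the log2 scale. The last member inside, miR-139-5p, differed by 2.61. The next miRNA below it, miR-100, differed by 2.56. Several non-members lay between the members, with miR-7b at 4.01, miR-7a at 3.93 and miR-137 at 3.54. Against the highest other group in place of PV, the log2 difference of SST was 2.01 for miR-187 and 1.37 for miR-139-5p. It was 0.24 for miR-551b, -0.99 for miR-31 and -1.05 for miR-873. The last 2 were thus lower in SST than in Camk2a.

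miR-7a and miR-7b, which are not members, were also highest in SST. miR-7a had 1252 and 877 RPM in SST, and its highest level elsewhere was 419 RPM in a Gad2 library. miR-7b had 478 and 334 RPM in SST, and its highest level elsewhere was 123 RPM in a Camk2a library. Both miRNAs were above all other libraries in SST, as miR-187 and miR-139-5p were and as miR-551b, miR-31 and miR-873 were not. Of the 3 other arms of this family, miR-7a-1* was highest in Cerebellum and miR-7a-2*, with 5 reads in SST, in Neocortex. miR-7b* was nearly level between Neocortex and SST, at 2.41 and 2.38 RPM. Its libraries overlapped there, and SST held 8 reads of it.

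Gad2 neurons include the SST and PV classes, and the place of the Gad2 mean between the PV and SST means differed among the members. On the linear scale Gad2 lay 23.6% of the way from PV to SST for miR-187, 27.1% for miR-139-5p and 38.6% for miR-31. It lay 81.3% of the way for miR-551b and 86.0% for miR-873. The first 3 were therefore well below the SST level in the wider GABAergic population, and the last 2 were close to it.

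Scaling bears on the SST values. Dividing each library by its trimmed mean of M-values (TMM) factor, which was 1.37 and 1.30 for the SST libraries, lowered all SST levels relative to other groups. All 5 members stayed above PV, with log2 differences of 5.94 for miR-187, 5.00 for miR-551b, 3.47 for miR-31, 2.34 for miR-873 and 2.14 for miR-139-5p. miR-187 and miR-139-5p stayed above all other libraries. The small differences between SST and Gad2 turned from 0.30 to -0.15 for miR-551b and from 0.19 to -0.26 for miR-873. The miR-551b difference between SST and Camk2a turned from 0.24 to -0.37. For miR-551b, then, whether SST or Camk2a was higher rested on the scaling.

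**Figure D2:**
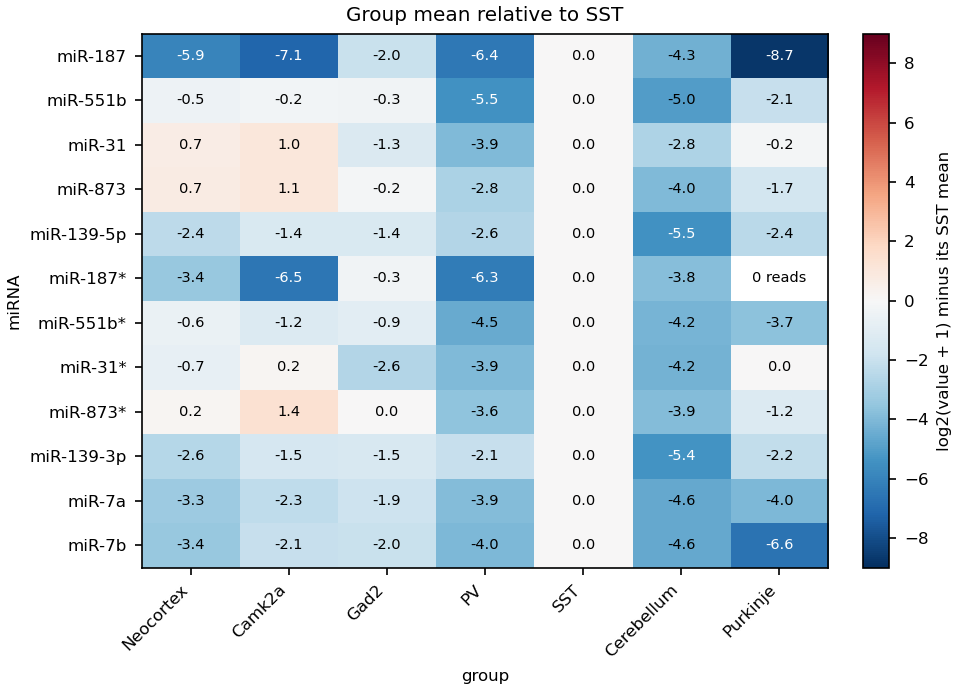
Group means of the 5 miRNAs, their other arms and miR-7a and miR-7b, as log2(deposited value + 1) minus the SST mean of the same miRNA. Rows are miRNAs, columns are groups, blue is below SST and red is above it; "0 reads" marks miR-187* in Purkinje. Only miR-31, miR-873 and the other arms miR-31* and miR-873* have cells above SST on this scale (after TMM scaling also miR-551b and miR-187*).

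Comparisons among the groups other than SST and PV were tested with limma on log2(deposited value + 1). The p-values were adjusted over 522 miRNAs and called at an adjusted p under 0.05. The fit held all 19 libraries, so SST and PV entered the estimate of spread but not the compared means. Differences are on that log2 scale with their standard error (SE). Whether the levels in Gad2, Camk2a or Neocortex had a part in the choice of the members is not known. These tests are thus not independent of that choice beyond leaving the SST and PV means out of the comparisons. Over the 5 groups other than SST and PV, each of the 5 members varied, with adjusted p from 8.22e-15 for miR-873 to 2.91e-10 for miR-187. This was also so for 85.8% of all miRNAs. Labels do not say whether libraries of a group came from separate animals, so these p-values measure the spread between libraries.

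Whole cerebellum and whole neocortex differed for all 5 (55.6% of all miRNAs did), in opposite directions. miR-187 was higher in Cerebellum by 1.61 (SE 0.45, adjusted p = 0.005), a 3.05-fold difference. The other 4 were lower in Cerebellum (4 of 5, against 36% of all miRNAs). miR-873 fell by 4.72 (SE 0.19, adjusted p = 1.07e-13) and miR-551b fell by 4.53 (SE 0.28, adjusted p = 3.83e-11). miR-31 fell by 3.51 (SE 0.24) and miR-139-5p fell by 3.11 (SE 0.26). The libraries of the 2 tissues did not overlap for any member, nor for 60.7% of all miRNAs. The median difference was -3.51 over the members and -0.40 over all miRNAs. Abundance of miR-551b, miR-31, miR-873 and miR-139-5p in the Neocortex libraries was thus 8.64-fold to 26.4-fold that in the Cerebellum libraries, which also differed in strain.

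Purkinje cells were compared with the cerebellum they lie in. All 5 differed (68.6% of all miRNAs did): 4 members were higher in Purkinje (31.2% of all miRNAs were) and miR-187 was lower (37.4% were). miR-139-5p was higher by 3.04 (SE 0.26, adjusted p = 2.08e-09), miR-551b by 2.90 (SE 0.28), miR-31 by 2.63 (SE 0.24) and miR-873 by 2.33 (SE 0.19). These are differences of 5.03-fold to 8.21-fold. miR-187 fell by 4.42 (SE 0.45, adjusted p = 3.02e-08), which is 21.3-fold and rests on 16 Purkinje reads. It was 12.9-fold without Purkinje replicate 1, 13.2-fold with a pseudocount of 10 and 14.0-fold with edgeR. The libraries did not overlap for any member, nor for 67.2% of all miRNAs. miR-187, then, was the one member more abundant in whole cerebellum than in its Purkinje cells. The vascular list summed to 5810 to 6312 RPM in Cerebellum and to 323 to 424 RPM in Purkinje. The blood and microglial list and the ependymal and choroid list were also much lower in Purkinje. Oligodendrocyte miRNAs (2 of 2) were less apart, at 3278 to 3463 RPM in Cerebellum and 2682 to 3186 RPM in Purkinje. The part of these lists in the differences was not tested.

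Excitatory Camk2a neurons and whole neocortex differed for 2 of the 5, against 44.8% of all miRNAs. miR-139-5p was higher in Camk2a by 0.97 (SE 0.26, adjusted p = 0.00489), and 16.9% of all miRNAs were higher. miR-187 was lower by this test, at -1.20 (SE 0.45, adjusted p = 0.0368), and 28% of all miRNAs were lower. That call was lost after TMM scaling (-0.90, adjusted p = 0.11) and when Neocortex replicate 1 or 3 or any one of the Camk2a replicates was left out (adjusted p up to 0.189). miR-551b, miR-31 and miR-873 had differences of 0.23 (95% interval -0.35 to 0.81), 0.29 (-0.21 to 0.79) and 0.32 (-0.07 to 0.71) and did not pass. After TMM scaling miR-31 and miR-873 did pass, at 0.60 and 0.63 (adjusted p = 0.0377 and 0.0119). They also passed with edgeR (adjusted p = 0.0315 and 0.00857) and DESeq2 (adjusted p = 0.044 and 0.0194). miR-139-5p passed under each scaling tried (limma with TMM, edgeR and DESeq2).

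Gad2 neurons and whole neocortex differed for 4 of the 5 (45% of all miRNAs did), in both directions. miR-187 was higher in Gad2 by 3.91 (SE 0.45, adjusted p = 6.63e-07), which is 15.1-fold. miR-139-5p was higher by 1.00 (SE 0.26, adjusted p = 0.00329), and 20.7% of all miRNAs were higher. miR-31 fell by 1.98 (SE 0.24, adjusted p = 1.22e-06) and miR-873 fell by 0.92 (SE 0.19, adjusted p = 0.000439), and 24.3% were lower. For miR-551b the difference was 0.16 (95% interval -0.42 to 0.75). This comparison and the ones of Camk2a and of Cerebellum share the Neocortex libraries, so their values are not independent. miR-31 and miR-873 were thus less abundant in GABAergic neurons as a whole than in neocortex.

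The direct comparison of the neuron classes, Gad2 against Camk2a, takes no mean from a whole-tissue library, and 3 of the 5 differed (38.1% of all miRNAs did). miR-187 was 34.6-fold higher in Gad2, by 5.11 (SE 0.45, adjusted p = 4.97e-08), as one of 21.5% of miRNAs higher there. miR-31 fell by 2.27 (SE 0.24, adjusted p = 2.56e-07), or 4.83-fold, and miR-873 fell by 1.24 (SE 0.19, adjusted p = 2.48e-05), or 2.37-fold, among 16.7% lower. miR-551b differed by -0.07 (95% interval -0.65 to 0.52) and miR-139-5p by 0.03 (95% interval -0.51 to 0.57). Of the 5, then, miR-187 alone passed as higher in GABAergic than in excitatory neurons, and miR-31 and miR-873 passed as lower.

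Both Purkinje and Gad2 neurons are GABAergic, and all 5 members differed between them (55% of all miRNAs did). miR-187 was 105-fold lower in Purkinje, a difference of -6.72 (SE 0.45, adjusted p = 9.03e-11) that rests on the 16 Purkinje reads. The fold was 63.5 without Purkinje replicate 1 and 63.9 with a pseudocount of 10. miR-551b fell by 1.80 (SE 0.28), miR-873 fell by 1.47 (SE 0.19) and miR-139-5p fell by 1.07 (SE 0.26, adjusted p = 0.00139). With miR-187 this made 4 of 5 lower, against 34.5% of all miRNAs. miR-31 was higher in Purkinje by 1.11 (SE 0.24, adjusted p = 0.000576), as 20.5% were. The group libraries did not overlap for any member, nor for 59% of all miRNAs. Region, strain and pooling differed along with the class here.

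**Figure D3:**
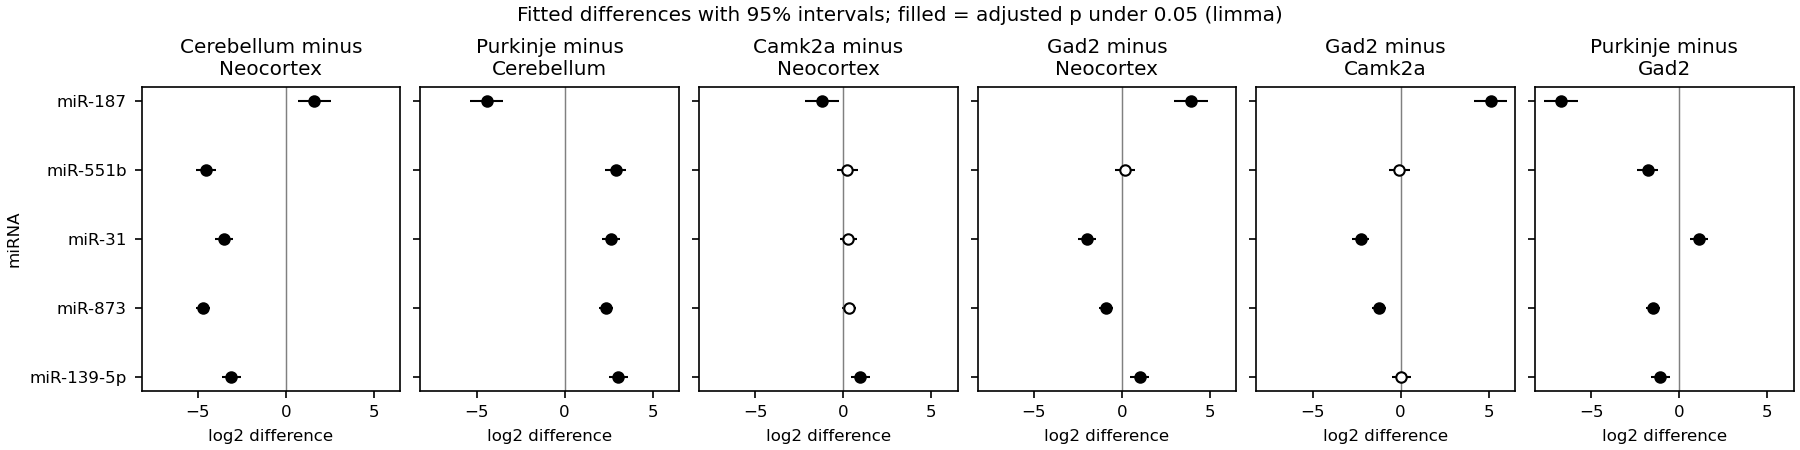
Fitted log2 difference of each miRNA (rows) in 6 comparisons without SST or PV (panels), with 95% intervals from limma. Filled points have an adjusted p under 0.05. miR-187 lies on the opposite side of 0 from the other 4 miRNAs for Cerebellum minus Neocortex, Purkinje minus Cerebellum and Camk2a minus Neocortex. In the last of these, 3 of the other 4 did not pass.

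The 2 comparisons of a GABAergic class with its own tissue share the estimate of spread but no compared library, so their difference could be tested directly. This test was added after the opposite directions were seen and draws on the same values as those comparisons, so it is no independent support for either. The Purkinje minus Cerebellum difference exceeded the Gad2 minus Neocortex difference by 4.62 for miR-31 (SE 0.34, adjusted p = 9.86e-10) and by 3.25 for miR-873 (SE 0.27, adjusted p = 3.98e-09). For miR-187 it was smaller by the widest margin of the 5, at -8.33 (SE 0.64, adjusted p = 1.69e-09). The margins for miR-551b and miR-139-5p were 2.73 (SE 0.40) and 2.04 (SE 0.36). All 5 passed, as did 45.8% of all miRNAs. Relative to the tissue of each class, miR-187 was high in the GABAergic class of neocortex and low in that of cerebellum. On that same relative measure, miR-31 and miR-873 had the reverse pattern.

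PV neurons are given beside these without a test. The fitted difference of PV from Gad2 was -5.17 for miR-551b, -4.40 for miR-187, -2.66 for miR-31, -2.62 for miR-873 and -1.24 for miR-139-5p. The median over the members was -2.66, and over all miRNAs it was 0.00025. All 5 had PV libraries below the Gad2 libraries without overlap, as 28.5% of all miRNAs did. Against Camk2a, PV was lower for 4 members, from -5.23 for miR-551b to -1.21 for miR-139-5p, and it was at 0.72 for miR-187.

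The other arm of each hairpin was also in the table, which gives a second measured product per gene. The 4 matched to RefSeq are shown with their seeds in capitals, since each differs from that of its partner and could pair with other targets.
miR-551b*: gAAAUCAAgcuugggugagaccu
miR-31*: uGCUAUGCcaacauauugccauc
miR-873*: gAGACUGAcaaguucccggga
miR-139-3p: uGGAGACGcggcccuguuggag

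The other arms were much scarcer than the members. miR-139-3p was the most abundant, at 181 ± 12.1 RPM (SD, n = 2) in SST and 65.6 ± 10.5 RPM (SD, n = 3) in Gad2. miR-873* reached 64.0 ± 8.62 RPM (SD, n = 3) in Camk2a, and miR-187* 18.1 ± 2.03 RPM (SD, n = 2) in SST. miR-551b* and miR-31* stayed below 8 RPM in every library. Like its partner, miR-139-3p was above all other libraries in SST, after TMM scaling too. miR-551b* was also above them, at 7.04 and 5.70 RPM from 9 and 14 reads, but not after TMM scaling, where its lower SST library was at 4.38 RPM and a Neocortex library at 4.67 RPM. miR-187* differed in this from miR-187: its SST libraries, at 19.6 and 16.7 RPM, overlapped those of Gad2, at 12.3, 12.4 and 18.8 RPM. miR-187* had no reads in any Purkinje library and was at least 38.3-fold lower there than in Gad2, with 3 reads over the group as the limit.

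Among the tested comparisons, the arms mostly had the direction of their partners. In Cerebellum against Neocortex 4 of 5 were lower (36% of all miRNAs were), and miR-187* was at -0.39 (SE 0.60, adjusted p = 0.607) where miR-187 had been higher. In Purkinje against Cerebellum 3 of 5 were higher (31.2% of all miRNAs were), miR-187* was lower and miR-551b*, which had 3 reads in each group, did not pass. In Gad2 against Camk2a miR-187* was higher by 6.13 (SE 0.60, adjusted p = 9.86e-08), with 5 reads in all in Camk2a. That difference was 3.74 with a pseudocount of 10 and 6.74 without Camk2a replicate 3. miR-31* fell by 2.85 (SE 0.72), or by 1.82 with a pseudocount of 10. miR-873* fell by 1.38 (SE 0.43), a call lost without Camk2a replicate 1 or 2 or Gad2 replicate 2 (adjusted p up to 0.0586). In Camk2a against Neocortex miR-873* was higher by 1.25 (SE 0.43, adjusted p = 0.0228), a call lost without Neocortex replicate 1, Camk2a replicate 1 or Camk2a replicate 2 (adjusted p up to 0.0885). The fitted differences of miR-139-3p and miR-139-5p had the same sign in all 6 comparisons.

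The share of hairpin reads on the other arm is a ratio within a library. The member's own reads enter this share, so it is not independent of the choice of the members. Tested over the 5 groups without SST and PV, it differed for miR-551b (adjusted p = 2.9e-05), miR-31 (adjusted p = 0.035) and miR-187 (adjusted p = 0.0352), among 156 hairpins of which 69.9% passed. It did not pass for miR-873 (adjusted p = 0.14) or miR-139 (adjusted p = 0.811). The miR-551b call held without any one library. It drew on only 3 miR-551b* reads each in Cerebellum and Purkinje, where the 0.5 added to each arm weighs on the ratio. Leaving out a library does not address that. The miR-187 call was lost without Neocortex replicate 1 or 3 or Camk2a replicate 1 or 2 (adjusted p up to 0.104). The miR-31 call was lost without any one Neocortex library, Gad2 replicate 2 or 3, or Purkinje replicate 1 or 2 (adjusted p up to 0.0994). miR-873 passed without Cerebellum replicate 3 (adjusted p = 0.0156).

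For miR-187 the pooled share on miR-187* was 11.4% of 289 reads in Neocortex (95% Clopper-Pearson interval 7.99% to 15.7%) and 7.16% of 5562 reads in Gad2 (6.49% to 7.86%). These intervals and those below pool the reads of a group and cover counting error only. In Neocortex, Gad2, SST and Camk2a the spread between libraries was wider. In SST the pooled share was 2.297% of 2873 reads (1.78% to 2.91%). It was 1.67% of 180 reads in PV (0.345% to 4.79%) and 2.96% of 169 reads in Camk2a (0.967% to 6.77%). The SST share was 1.91% and 3.42% by library, below all 3 Gad2 libraries, which ran from 5.66% to 11.8%. This difference between SST and Gad2 was not tested, and the miR-187 reads, on which the choice rested, enter the share.

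For miR-551b the share on miR-551b* was 0.238% of 1260 reads in Purkinje (interval 0.0491% to 0.694%) and 2.21% of 136 reads in Cerebellum (0.457% to 6.31%), each from 3 reads. It was 0.447% in Camk2a, 0.543% in Gad2, 0.712% in Neocortex and 0.887% in SST. For miR-873 the share on miR-873* was 3.81% in PV, 5.09% in Neocortex, 6.77% in SST, 7.74% in Gad2, 8.58% in Camk2a, 9.004% in Purkinje and 9.40% in Cerebellum. For miR-139 the share on miR-139-3p was between 0.786% in Neocortex and 1.60% in PV. The share of miR-139-3p thus stayed low in every group while the mean level of miR-139-5p differed 44.5-fold between SST and Cerebellum.

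**Figure D4:**
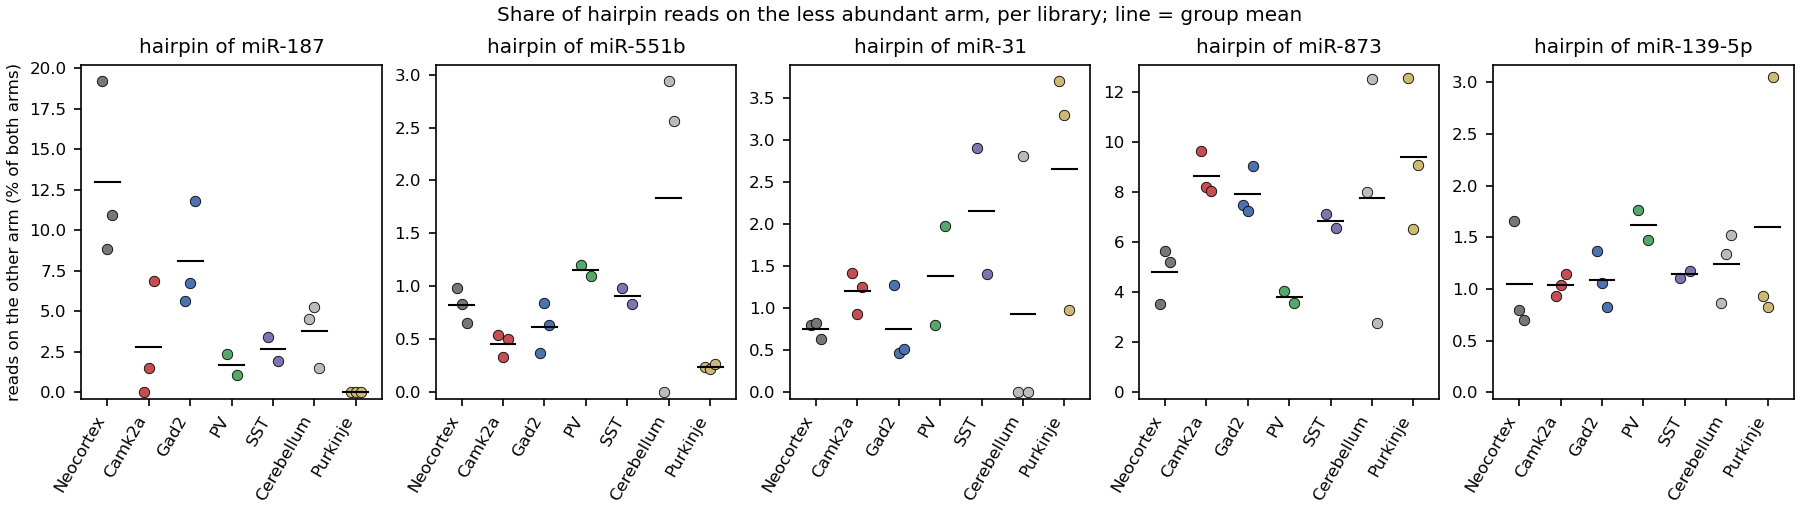
Share of reads on the less abundant arm of each hairpin, in percent of the reads of both arms, for each library (points) with group means (lines), on linear axes that differ between panels. For miR-187 both SST libraries lie below all 3 Gad2 libraries. The Purkinje points of miR-187 rest on 16 reads in all.

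The profiles of the members over the groups are compared as a description, since group means share their libraries and their scaling. Over the 5 groups without SST and PV, Pearson's r of log2 levels was 0.97 between miR-551b and miR-873, 0.96 between miR-551b and miR-139-5p and 0.89 between miR-873 and miR-139-5p. miR-31 had r of 0.87 with miR-873, 0.79 with miR-551b and 0.74 with miR-139-5p. miR-187 had r of -0.59 to -0.03 with the other 4. Over all 7 groups, which include those the members were chosen on, r was 0.93 between miR-551b and miR-873, 0.76 between miR-551b and miR-139-5p, and -0.05 to 0.36 between miR-187 and the others. miR-187 thus had the profile least like those of the other 4 on both sets of groups.

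The miRNAs most like each member were sought among 312 whose mean level reached 10 RPM. For miR-551b, miR-31 and miR-873 it was miR-411 each time, with r of 0.90, 0.87 and 0.92 over the 7 groups. Over the 6 groups without SST its r was 0.89, 0.87 and 0.93, and miR-339-3p (0.91) was more like miR-551b and miR-376c (0.94) more like miR-31. miR-411 was at 1767 RPM in Camk2a, 1687 RPM in SST, 724 RPM in PV and 481 RPM in Cerebellum, a narrower range than that of the members. For miR-139-5p it was miR-1224 (r of 0.96, and 0.94 without SST), at 149 RPM in SST and 7.66 RPM in Cerebellum. Next to it were miR-323-5p (0.96, and 0.95 without SST, above miR-1224) and miR-540-3p (0.95). For miR-187 it was miR-146b (0.91, and 0.85 without SST), then miR-296-3p (0.88) and miR-298 (0.86). miR-298, like miR-187, was high in Gad2 and SST, at 180 and 131 RPM, and low in PV and Purkinje, at 7.55 and 1.35 RPM.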

How the data were processed

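Reads of 19 Ago2 small RNA libraries were mapped with Bowtie to mm9, per the submitters' processing notes (Bowtie's version: not given in the sources used here). The deposited signal of 528 miRNAs was the read count scaled by the authors to one total per library. The file header names a total of 1000000, whereas each library's column added up to 10000000. RPM here are the deposited values over 10. Within 0.1 read, 100% of values were whole reads, recovered for all 19 libraries. In Neocortex replicate 3 low values were few, and the step was read from all its values.

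Names below 1 on the deposited scale in all but 1 library were dropped, and limma 3.58.1 (R 4.3.3, trend, pseudocount 1, 7 group means) was fitted to the other 522 with Benjamini-Hochberg adjustment. The moderated tests are two-sided. Arm ratios used log2 of reads + 0.5 for hairpins reaching 20 summed reads in 2 libraries and averaging 5 reads or more on each arm. On recovered reads, edgeR 4.0.16 called 294, 338, 276, 281, 234 and 313 miRNAs in the 6 tested comparisons, in the order Cerebellum-Neocortex, Purkinje-Cerebellum, Camk2a-Neocortex, Gad2-Neocortex, Gad2-Camk2a and Purkinje-Gad2, where limma called 290, 358, 234, 235, 199 and 287. DESeq2 1.42.0, TMM scaling, pseudocount 10, no filter and leaving out each library were other alternatives. The fits were also run on simulated data with the same fixed spread for every miRNA, which does not check them at the real spread of each miRNA.

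The members and lists were chosen with earlier results of these data known. Tests of PV had been planned, but because the members' choice may have drawn on PV, those contrasts are described only, and the comparison of any difference was limited to 5 groups. Named miRNAs were the members, their other arms, the 3 miRNAs of highest r with each member and any that shared a seed; miR-7a and miR-7b were a comparison list, and miR-137 and miR-100 were named after their values were seen. Of the marker lists, oligodendrocyte miRNAs (2 of 2) summed to 938 to 1159 RPM in SST and 1953 to 3162 RPM in Neocortex. Replicates of a group differed beyond counting error (chi-square per degree of freedom 34.2 to 693 over 17 pairs).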

Additional observations from a re-analysis of the deposited data

Results flagged for a closer look

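The difference between a GABAergic class and its own tissue was not the same in cerebellum and neocortex for any of the 5 miRNAs. As the test of that difference (Purkinje minus Cerebellum against Gad2 minus Neocortex, limma, added after the values were seen), it was -8.33 for miR-187, 4.62 for miR-31, 3.25 for miR-873, 2.73 for miR-551b and 2.04 for miR-139-5p on the log2 scale. The test uses the same values as the 2 comparisons it is made of. Each miRNA still passed after TMM scaling and without any one of the 12 libraries involved, with adjusted p up to 0.00044 for miR-139-5p. The 2 regions also differed in strain and in the number of tissues pooled, which cannot be told apart from the cell class.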

How the results depend on the processing

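Counts of called miRNAs stayed within 1.5 times the reported count under every alternative run, except for PV against Gad2, where 111 became 73 to 105 when single libraries were left out (73 without PV replicate 1). For the members, 339 of 360 values from alternatives kept direction and call. For the other arms 321 of 360 did, while 25 lost the call, 12 changed sign and 2 gained a call. Values near 0 changed sign. Gad2 minus Camk2a became -0.12, -0.13 and -0.15 for miR-139-5p and -0.083, -0.090 and -0.11 for miR-139-3p with TMM, edgeR and DESeq2, and ran from -0.11 to 0.18 and from -0.058 to 0.29 when single libraries were left out. Gad2 minus Neocortex became 0.028 and 0.010 for miR-873* with TMM and edgeR (left-out range -0.32 to 0.025), and Purkinje minus Cerebellum became -0.22 for miR-551b* with DESeq2 (left-out range -0.48 to 0.93). Left-out ranges that crossed 0 for miR-551b were -0.19 to 0.54 for Camk2a minus Neocortex and -0.25 to 0.47 for Gad2 minus Neocortex (both negative without Neocortex replicate 1), and -0.18 to 0.072 for Gad2 minus Camk2a; for miR-187* in Cerebellum minus Neocortex the range was -0.90 to 0.10. The cause was not tested.

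Scaling moved the share of called miRNAs that were higher from 37.6% to 55.3% (TMM), 52.2% (edgeR) and 49.8% (DESeq2) for Camk2a against Neocortex, and from 56.3% to 44.5% (TMM) for Gad2 against Camk2a. It moved from 37.3% to 47.6% (edgeR) and 50.7% (DESeq2) for Purkinje against Gad2, from 35.2% to 46.8% (DESeq2) for Cerebellum against Neocortex, and from 31.5% to 46.0% (DESeq2) for PV against Gad2. TMM moved the median difference of all miRNAs from -0.25 to 0.03 for Camk2a against Neocortex. With the replicate number as a block, the counts were 283, 361, 234, 246, 199 and 287 in the 6 tested comparisons. Deviations of same-numbered libraries from their group means had a median r of 0.016 over 52 pairs (range -0.23 to 0.18). With so few libraries per group this cannot exclude pairing between some groups, and the main tests used none. Depth limits miR-187 in Purkinje (16 reads), the arm shares of miR-551b and miR-31 in Cerebellum and that of miR-551b in Purkinje (3 reads on the other arm each).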
